A study of Mus musculus with 104 samples.

Results

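The frontal cortex of female BALB mice was profiled at 2-3 months of age (young, 8 arrays) and at 15-16 months (old, 8 arrays). These 16 arrays, chosen by their labels for strain and region, are 16 of the 104 arrays of a series on mouse brain ageing. Each array measured total RNA from 1 sample in 1 colour on an Agilent whole mouse genome design. For array work the study killed mice by decapitation and dissected the brain at once. No treatment, transgene or knockout was given for any of the mice, so by the labels strain, sex and region were shared and age differed. Markers of neighbouring tissue also differed between arrays, as given below. The labels did not say which samples came from separate animals, so p-values measured the spread between these samples. The comparison asked which genes differed in level between early adulthood and late middle age in this cortical region. All levels are log2 signal, a unit of 1 being a doubling, and every difference is old minus young on that scale.

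The frontal cortex is a layered sheet in which excitatory pyramidal neurons, marked by the vesicular glutamate transporter Slc17a7, work with inhibitory interneurons, astrocytes, oligodendrocytes, microglia and blood vessels. Neuronal firing switches on a set of transcription factor and signalling genes within minutes, among them Fos, Egr2 and Arc, and their level at death depends on the animal's recent experience. Adrenal glucocorticoid hormone enters the brain with stress and with the daily cycle, and switches on another set that includes Fkbp5, Tsc22d3 and Sgk1. Ageing of the brain is known for a slow rise of innate immune genes.

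The labels were first set against marker genes. Slc17a7 lay between 13.17 and 14.34 in young and between 11.83 and 13.48 in old cortex. All 20 genes of a cortical neuron list passed the background filter, as did 20725 of all 28780 genes and all 15 striatal genes on the array. Xist, the RNA that silences an X chromosome in females, had medians of 12.31 in young and 12.69 in old cortex and was bright on all 16 arrays. The Y-linked genes Eif2s3y, Ddx3y and Kdm5d were between 5.43 and 6.26, and none was well above background on a scanned array. The sex label was thus matched by these genes. The cortical markers were not set against another region, and striatal genes were bright as well, with Penk between 17.00 and 18.18 on the 12 arrays other than young 2, 4, 6 and 7.

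Arrays differed in the level of markers of neighbouring tissue. Markers of the striatum, the nucleus that lies beneath the frontal cortex, stood apart on 4 of the 8 young arrays. The mean of the 15 striatal genes, each centred on the 16 arrays, was -2.31, -2.94, -2.14 and -1.80 on young arrays 2, 4, 6 and 7. On the other young arrays it was between 0.83 and 1.38, and on the old arrays between -0.55 and 1.38. All 15 striatal genes therefore had positive differences, with a median of 1.26 beside 0.01 over all genes tested. Drd2, the D2 dopamine receptor, was 8.95, 8.07, 9.01 and 9.60 on those 4 young arrays, and between 11.59 and 14.28 on the other 12. Without the 4 arrays the striatal median was -0.54. In tissue RNA, fewer cells of a type and less RNA per cell cannot be told apart, and the part of dissection in each result below was not tested except where a value without these arrays is given.

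Markers of other neighbouring tissue stood out on single arrays. Olfactory bulb genes were highest on old arrays 3, 5 and 6, where their centred mean was 2.72, 2.09 and 1.23, and on young array 1, where it was 0.98. Hypothalamic genes were highest on young array 1 at 1.82 and old array 6 at 1.20. Avp, the vasopressin gene of the hypothalamus, reached 15.26 on young array 1, against 7.25 to 10.47 on the other young arrays. Choroid plexus genes stood out on old array 7 at 2.89 and young array 5 at 2.04. A hippocampal list was highest on young array 6 at 1.21, where Lct was 13.12. Old array 3 had the lowest median correlation with its group, 0.966.

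**Figure D1:**
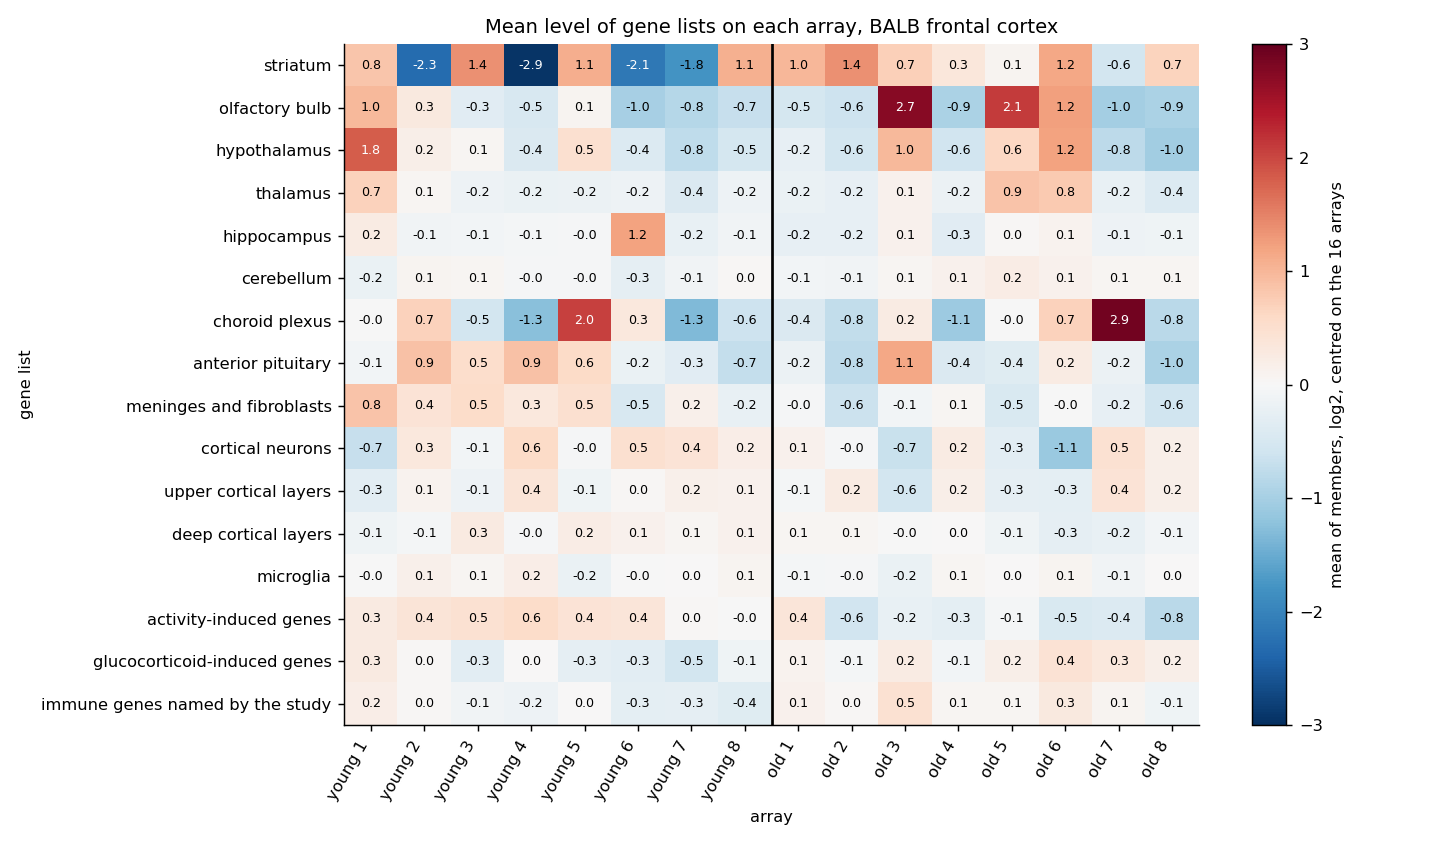
Mean level of 16 gene lists on each of the 16 arrays, in log2 units centred on the mean of the 16 arrays (colour and printed value); columns are arrays, with young on the left of the black line and old on the right. Striatal genes were low on young arrays 2, 4, 6 and 7, and activity-induced genes were below every young array on 7 of the 8 old arrays.

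One gene passed the test for age. Of 20725 genes tested, Plin4 alone reached both a B statistic above 0 (the log odds, from limma, that a gene differs) and an adjusted p under 0.05, which is 0.00483% of genes. Plin4 encodes perilipin 4, a coat protein of lipid droplets that is known to respond to glucocorticoid. Its level in young cortex was 8.74 at the lowest, 10.39 at the median and 12.16 at the highest, and in old cortex 12.00, 13.02 and 13.84. Old array 4, at 12.00, was the only old array that did not exceed every young one, and young array 1 was the only young array above 10.56. The mean rose by 2.61 ± 0.36 (SE, n = 8 and 8), a 6.1-fold difference, with a limma adjusted p of 0.0323 and B of 3.52.

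The size of the Plin4 difference held across settings better than its call did. It ranged from 2.38 to 2.87 when each array was left out in turn, and from 2.21 to 2.99 over every other setting. The call was kept on leaving out young array 1, young array 7, old array 2 or old array 4, and was lost on leaving out any of the other 12 arrays, with adjusted p up to 0.134. Without the 4 young arrays low in striatal genes the difference was 2.21 and the adjusted p 0.704. In the 8 arrays with scanner output, with the slide as a block, it was 2.40.

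**Figure D2:**
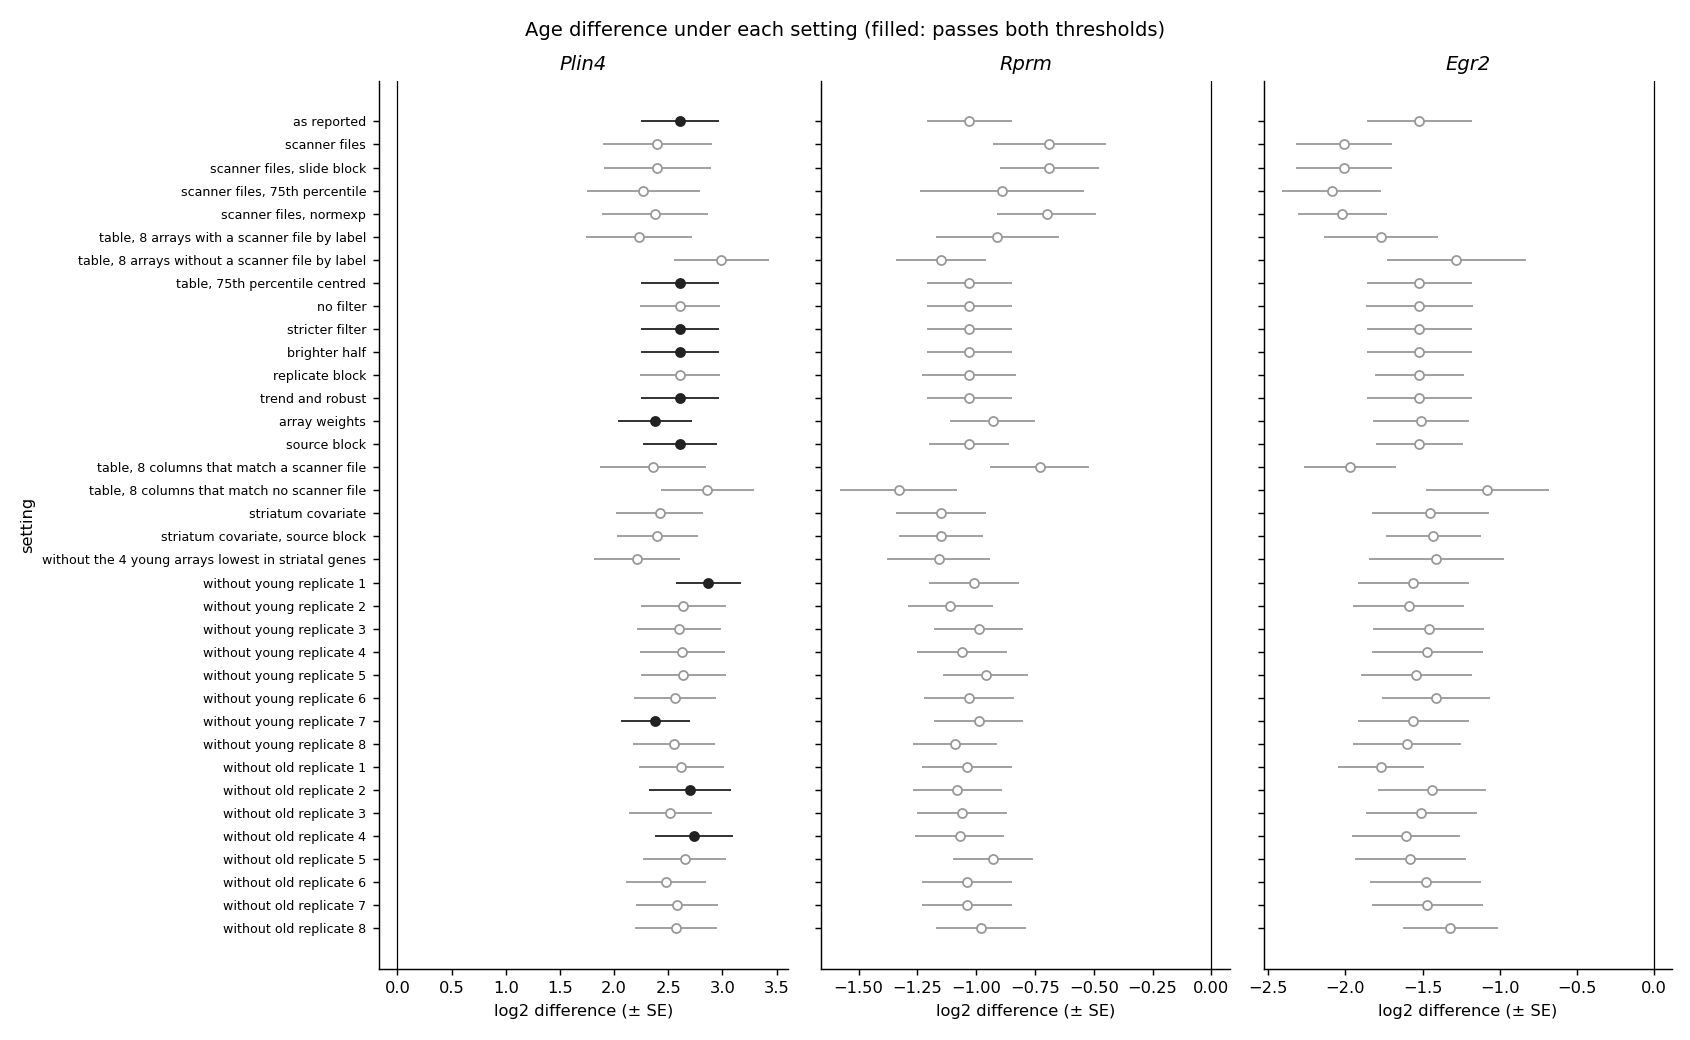
Age difference of Plin4, Rprm and Egr2 under each processing setting (rows); points are log2 differences, old minus young, bars are standard errors, and filled points pass both thresholds. The differences kept their direction in every row, while the Plin4 call did not.

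No gene fell by the same rule. By unadjusted p under 0.05, 1011 genes (4.88% of those tested) stood out, of which 406 (1.96%) were higher in old cortex and 605 (2.92%) were lower. By B above 0 alone there were 19 (0.0917%), of which 8 (0.0386%) were higher and 11 (0.0531%) lower. The genes below did not pass the test and are given by their values.

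Among the genes of lowest p with higher values in old cortex, Xdh encodes xanthine dehydrogenase, which makes uric acid. Xdh was 6.85, 7.92 and 8.62 at the lowest, median and highest in young cortex, and 8.47, 9.48 and 9.60 in old cortex. Its difference was 1.39 ± 0.27 (limma adjusted p = 0.23), and its other probe gave 1.14. Old array 5 was the only old array within the young range. With the arrays split by whether a scanner file matched them as a block, Xdh passed, with an adjusted p of 0.00646.

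Il33 encodes an alarm cytokine that mature oligodendrocytes hold in the nucleus. Its levels were 9.1, 10.07 and 10.62 in young and 10.57, 10.90 and 11.54 in old cortex, again with 7 of the 8 old arrays above every young one. The difference was 1.03 ± 0.22 (adjusted p = 0.314). The myelin and oligodendrocyte list that holds Il33 had a median of 0.10, with 1 of 20 genes (Il33) higher and 1 lower by unadjusted p. Over all genes 1.96% were higher and 2.92% lower.

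Hcar2, a receptor for ketone bodies and niacin on immune cells, had values that did not overlap between the groups. It was between 5.73 and 6.03 in young and between 6.18 and 6.97 in old cortex. Its probe was not well above background on any of the 4 scanned young arrays and was on all 4 scanned old ones, so over those scanned arrays it was at least 1.59-fold higher (adjusted p = 0.32 over all 16 arrays). It therefore passed the background filter only through the old arrays, where it was high, and its separation and p are a description. Galnt15, a glycosyltransferase, differed by 0.78 ± 0.17, and Pcdhb8, an adhesion protein of neurons, by 0.89 ± 0.21, with adjusted p of 0.316 and 0.332. In all, 6 genes (0.029%) did not overlap between the groups, 3 (0.0145%) in each direction, and 2 of the 6 were above background at 1 age only. Beside Hcar2, the higher ones were Spg20, named here for that reason, at 0.37 ± 0.11, and an unnamed RIKEN clone.

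A probe the array names H2afy, the older symbol of the histone variant macroH2A1, had as large a difference as Plin4. It was between 6.82 and 7.53 on the young arrays and between 8.97 and 11.36 on 7 of the old ones, but 7.04 on old array 7. The difference was 2.61 ± 0.42 (adjusted p = 0.117), and 2.99 with an adjusted p of 0.000186 without old array 7. The probes that carry the current symbol Macroh2a1 gave 0.64 ± 0.17 and 0.61 ± 0.26, so probes of this locus had the same direction and unlike sizes.

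Of the genes with lower values in old cortex, Rprm was the clearest in separation. Rprm encodes reprimo, a p53 target that in the cortex marks deep-layer pyramidal neurons. Its levels were 14.11, 14.77 and 15.19 in young and 12.96, 13.72 and 14.00 in old cortex, so that the groups did not overlap, and the second probe of the gene did not overlap either. The differences by the probes were -1.03 ± 0.18 and -1.01 ± 0.20, with adjusted p of 0.16 and 0.23. Ntsr1, the neurotensin receptor of layer 6 neurons, was between 11.19 and 12.01 in young and between 9.78 and 11.55 in old cortex. The deep-layer list as a whole had a median of -0.06, with 2 of 19 genes lower by unadjusted p, Rprm and Ntsr1. Over all genes 2.92% were lower.

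Rasl10a, a small Ras-like GTPase of neurons, and Bag2, a co-chaperone, were the other genes with every old array below every young one. Rasl10a was between 13.95 and 14.71 in young and between 13.06 and 13.90 in old cortex, a difference of -0.74 ± 0.15 (adjusted p = 0.23). Bag2, named for its separation, was between 9.52 and 9.90 and between 9.08 and 9.48, a smaller difference of -0.34 ± 0.11. The somatostatin receptor Sstr2, which dampens neuronal firing, had -0.82 ± 0.18. Mycn, a growth transcription factor, was -0.83 ± 0.16, and Tmem114, a membrane protein, -1.11 ± 0.24. The adjusted p of Sstr2, Mycn and Tmem114 ranged from 0.23 to 0.32.

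Aplnr, the receptor for apelin on developing vessels, was 7.20, 7.90 and 8.62 in young and 6.54, 6.87 and 7.49 in old cortex. Its difference was -1.09 ± 0.19 (adjusted p = 0.16), with 6 of 8 old arrays below every young one. The other probe of Aplnr gave -0.23. Pdgfb, the endothelial growth factor that recruits pericytes, had -0.99 ± 0.22 (adjusted p = 0.32). Myoc, myocilin, a secreted protein of the matrix, was between 9.48 and 10.59 in young and between 8.22 and 9.61 in old cortex, with only old array 5 within the young range.

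**Figure D3:**
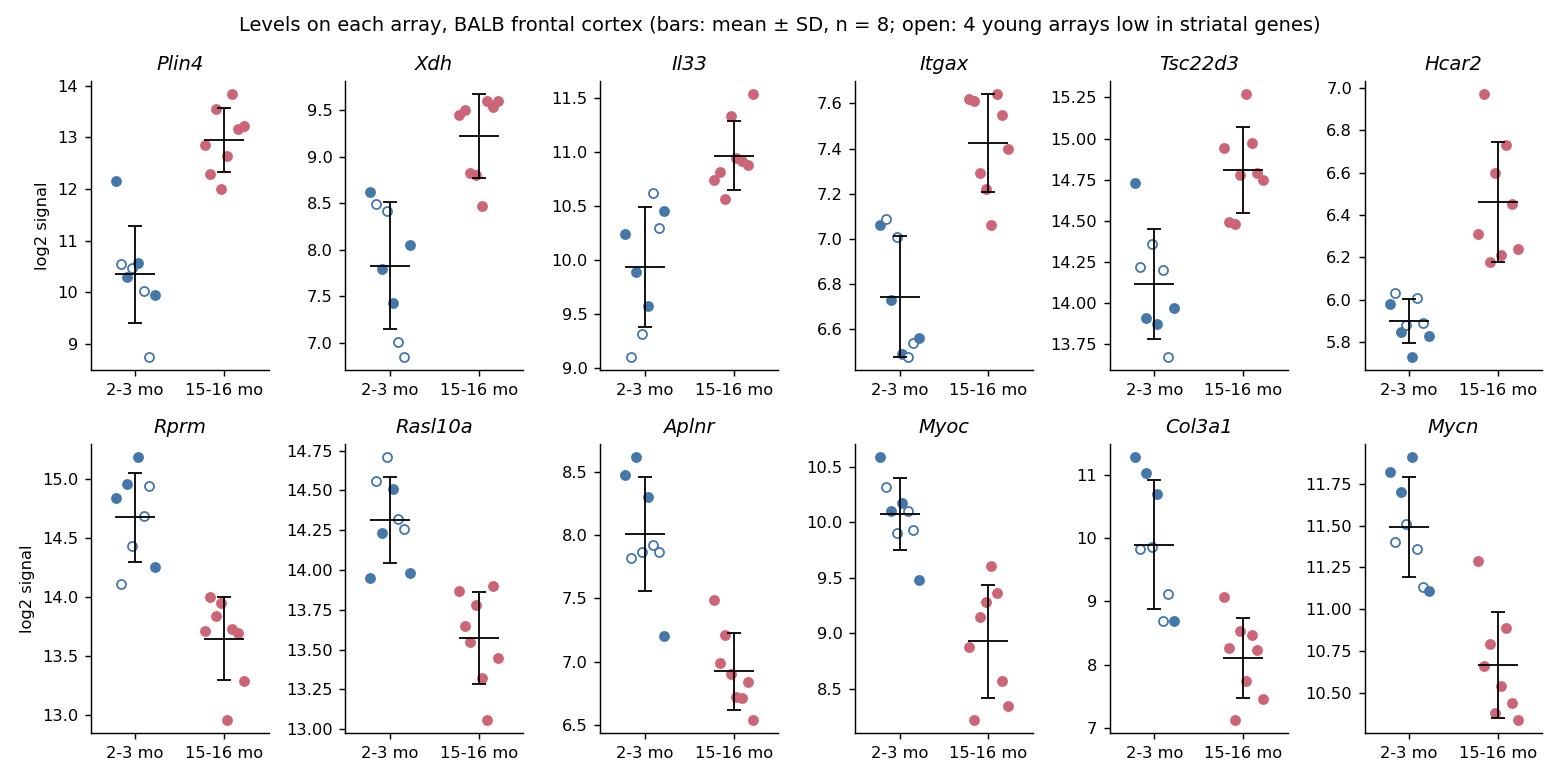
Level of 12 genes on each array in young (2-3 months, blue) and old (15-16 months, red) frontal cortex, in log2 signal on axes that do not start at 0; bars are mean ± SD (n = 8), and open points are the 4 young arrays low in striatal genes. Hcar2, Rprm and Rasl10a did not overlap between the ages, and Plin4 overlapped by 1 young array.

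Genes were next described by the lists they belong to, and the activity-induced list had the largest share of members lower at low p. Of its 24 tested genes, 15 were lower and none higher in old cortex at unadjusted p under 0.05, where 2.92% of all genes were lower. None passed the adjusted threshold. The median difference was -0.65, beside 0.01 over all genes, and 22 of 24 genes had negative values.

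Egr2, a zinc finger factor, had the largest difference of the list. It was 12.65, 13.01 and 13.99 in young and 10.28, 11.47 and 13.44 in old cortex. Old array 1, at 13.44, was the only old array within the young range. The difference was -1.52 ± 0.34 (adjusted p = 0.32). Its relative Egr4 was 15.03, 15.77 and 16.26 in young and 13.97, 14.89 and 15.59 in old cortex, a difference of -0.95 ± 0.21.

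Fos, the subunit of AP-1 most used as a mark of recent firing, was between 11.66 and 12.71 in young and between 9.68 and 11.99 in old cortex, a difference of -1.09 ± 0.30. Its partner Junb differed by -0.67 ± 0.18. For both, 7 of the 8 old arrays were below every young one. Npas4, a factor that answers to calcium entry in neurons, differed by -1.07 ± 0.35, and Arc, which moves glutamate receptors from the synapse, by -0.90 ± 0.31. Nr4a1, Egr1, Fosb, Ier2, Btg2, Ccn1, Dusp1, Per1 and Gadd45b were the other 9 genes at unadjusted p under 0.05. Their differences lay between -0.83 for the matrix protein Ccn1 and -0.56 for the growth arrest gene Gadd45b. The members with positive values were Egr3 at 0.01 ± 0.19 and the synaptic scaffold Homer1 at 0.26 ± 0.42, whose other probes gave -0.33 for Egr3 and -0.14 and -0.16 for Homer1, and Nr4a2 had -0.77 ± 0.43.

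The mean of the list was lower on most old arrays. Centred, it was between -0.02 and 0.56 on the young arrays. On the old arrays it was 0.36 on array 1 and between -0.82 and -0.05 on the other 7, all of which were below every young array. Single genes departed from it: Homer1 was highest on old array 8 at 12.85, where the list mean was lowest. Old array 1 had the highest Per1 of its group, at 15.27 against 13.61 to 14.35.

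Leaving out any array kept between 12 and 15 genes lower at unadjusted p and none higher, with medians between -0.76 and -0.57. Without the 4 young arrays low in striatal genes 9 were lower and the median was -0.68. With the striatal mean as a covariate, 11 were lower and the median was -0.66. The 8 arrays that a scanner file matched gave 16 lower and a median of -0.90, where 624 of all 20725 genes were lower. The 8 that none matched gave 3 and -0.39, where only 127 of all genes were lower. The size of this group's difference thus depended on which arrays were used, while its median stayed negative in each of these settings.

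**Figure D4:**
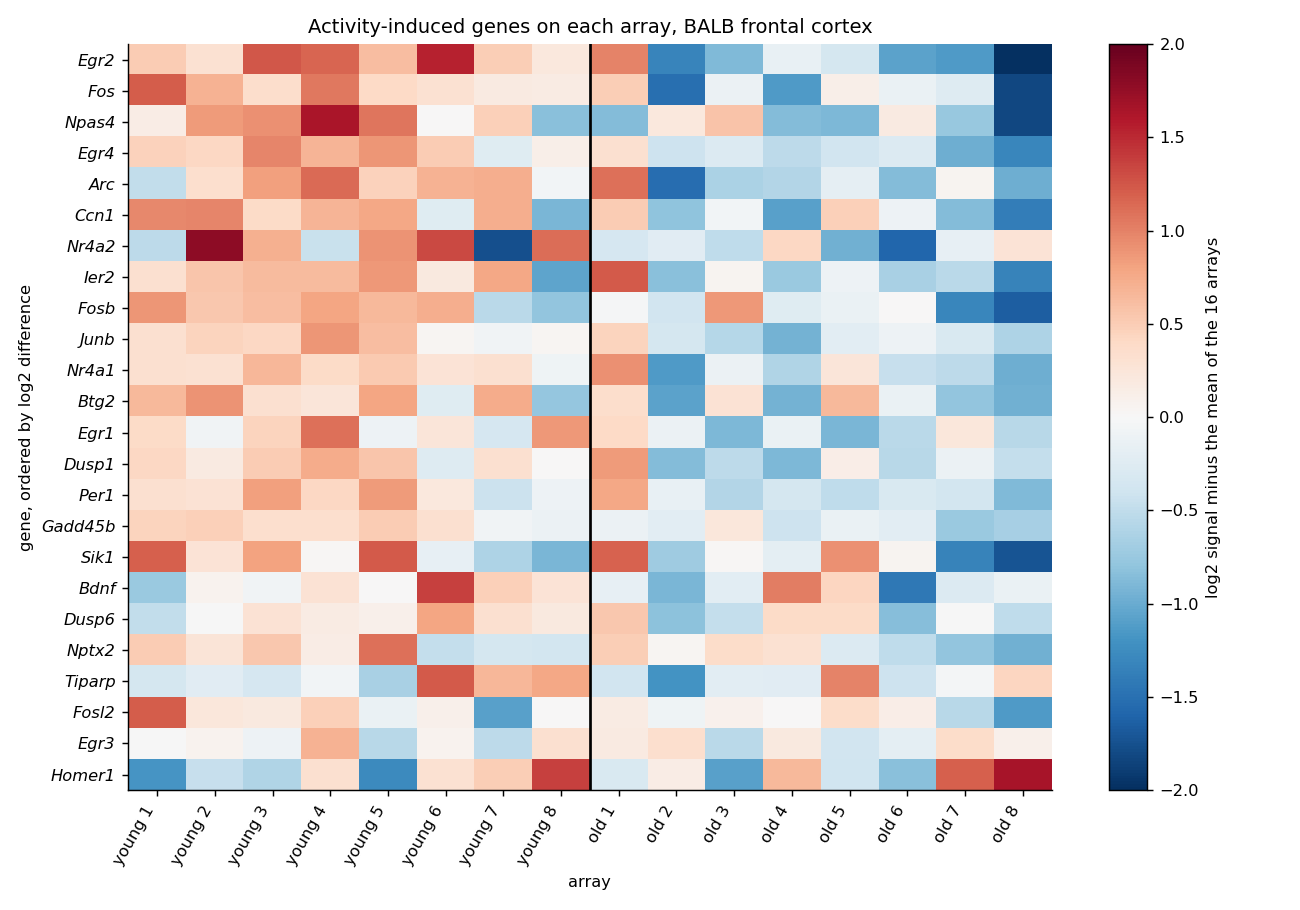
Levels of the 24 tested activity-induced genes on each array, as log2 signal minus the gene's mean over the 16 arrays; rows are genes in order of their difference, and the black line parts young from old. Most rows run from high in young to low in old arrays, with old array 1 like the young ones.

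The 250 bases upstream of the starts of the activity-induced genes were searched on both strands for TGACG. It is the core of the cAMP response element that CREB binds. Of 19 genes of the list with a promoter in the RefSeq table, 15 held it, or 78.9%. These 15 include Nr4a3, which was not tested, and Bdnf, Homer1 and Nr4a2, which did not reach unadjusted p under 0.05. Of the 11734 tested genes with a promoter, 28.2% held it (19.8% of all 27025 genes in the table, and 17.8% of the 32851 starts, some genes having several). The list was chosen for induction by neuronal firing, so its share describes the list and does not bear on age. The whole element TGACGTCA, which contains the core, was in 2 of the 19, and in 2.78% of tested genes. A match of letters is a description of the sequence and does not show binding. The upstream sequences of 4 members with low p are printed below from RefSeq (GRCm38.p6), 5′ to 3′ on the gene's strand and ending at the base before the start, with the core in capitals (CGTCA where it lies on the other strand). They lie at chr12:85473640-85473889 on the plus strand for Fos, chr8:84978749-84978998 on the minus strand for Junb, chr6:85513590-85513839 on the minus strand for Egr4 and chr19:4989972-4990221 on the minus strand for Npas4.
Fos: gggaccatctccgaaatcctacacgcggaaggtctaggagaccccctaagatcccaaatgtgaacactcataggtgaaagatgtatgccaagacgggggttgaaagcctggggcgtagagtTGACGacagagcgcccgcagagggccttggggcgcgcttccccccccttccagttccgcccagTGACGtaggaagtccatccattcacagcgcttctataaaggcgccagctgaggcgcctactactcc
Junb: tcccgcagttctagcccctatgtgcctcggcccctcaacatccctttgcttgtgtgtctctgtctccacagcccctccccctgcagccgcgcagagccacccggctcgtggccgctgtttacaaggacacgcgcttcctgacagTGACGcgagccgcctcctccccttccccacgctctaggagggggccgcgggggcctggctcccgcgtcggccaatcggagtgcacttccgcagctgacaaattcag
Egr4: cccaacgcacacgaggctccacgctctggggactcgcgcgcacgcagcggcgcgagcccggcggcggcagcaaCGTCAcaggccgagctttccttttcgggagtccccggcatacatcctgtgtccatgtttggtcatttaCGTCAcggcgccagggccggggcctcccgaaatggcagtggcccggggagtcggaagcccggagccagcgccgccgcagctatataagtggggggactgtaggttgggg
Npas4: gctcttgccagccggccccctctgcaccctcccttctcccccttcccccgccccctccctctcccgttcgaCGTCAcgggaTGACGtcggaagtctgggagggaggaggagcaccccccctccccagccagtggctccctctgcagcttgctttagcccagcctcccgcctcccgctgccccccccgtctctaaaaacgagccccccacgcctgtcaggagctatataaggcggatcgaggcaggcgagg
Fos, Egr4 and Npas4 held 2 cores each and Junb 1. In Fos the core nearer the start began 66 bases upstream, and in Junb the single core began 106 bases upstream.

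Genes switched on by glucocorticoid had values in the other direction. Of 19 tested, 9 were higher at unadjusted p under 0.05, where 1.96% of all genes were higher, and 3 were lower. The list held Plin4, its called member, and its median was 0.34. Tsc22d3, or GILZ, a leucine zipper protein that carries much of the hormone's anti-inflammatory action, was 13.67, 14.09 and 14.73 in young and 14.48, 14.78 and 15.27 in old cortex. Its 3 probes differed by 0.69, 0.66 and 0.66, with an adjusted p of 0.32 for the brightest.

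Sult1a1, a sulfotransferase, was between 9.29 and 10.32 in young and between 9.89 and 11.19 in old cortex, with a difference of 0.92 ± 0.19. The kinase Sgk1 differed by 0.64 ± 0.19, and Fkbp5, the chaperone that tunes the hormone's receptor, by 0.55 ± 0.19 (0.26 without the 4 young arrays low in striatal genes). The metal-binding proteins Mt1 and Mt2 differed by 0.54 ± 0.24 and 0.50 ± 0.16. Arrdc2, an arrestin-like protein, and Gjb6, the gap junction protein of astrocytes, were the remaining 2 of the 9, at 0.51 ± 0.23 and 0.65 ± 0.30.

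The 3 that were lower were Dusp1, a phosphatase, and Per1, a clock gene, which are also members of the activity-induced list, and Ddit4, a stress-induced inhibitor of growth, at -0.50 ± 0.21. The centred mean of the glucocorticoid list was between -0.54 and 0.26 in young and between -0.09 and 0.43 in old cortex. On this mean 2 old arrays were above every young one. Leaving out an array kept 6 to 9 genes higher and medians between 0.21 and 0.43. The 8 arrays that a scanner file matched gave 4 higher and 2 lower (221 and 624 over all 20725 genes), with a median of 0.20. The 8 that none matched gave 8 and none (178 and 127 over all genes), with a median of 0.47. Without the 4 young arrays low in striatal genes, 6 were higher and 2 lower with a median of 0.26. On scanner values centred on the 75th percentile, where all genes had a median of -0.08, the list's median was -0.06, Mt1 was -0.12 and Mt2 was -0.13, so the direction of the list depended on that scaling. The glucocorticoid response element core ACANNNTGT was searched as above and on both strands. It was in 3 of 19 promoters of the list (Lcn2, Mt1 and Sgk1) and in 4.81% of tested genes. The activity-induced list also had it in 3 of 19 promoters (Bdnf, Dusp6 and Egr4). TGACG was in 8 of 19 promoters of the glucocorticoid list (42.1%), among them the shared members Dusp1 and Per1. Neither motif was thus confined to its own list.

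Immune genes were taken from the categories the study named from other samples of the series. This list, like the others, was chosen with earlier results of these data known, so its direction is no independent evidence. Of 34 tested, 8 were higher and none lower at unadjusted p under 0.05, where 1.96% of all genes were higher and 2.92% lower. None passed the adjusted threshold, and 30 had positive differences with a median of 0.21. The list's centred mean was between -0.16 and 0.19 on young arrays 1 to 5. On young arrays 6 to 8 it was between -0.36 and -0.28. In old cortex it was between -0.14 and 0.46, and 2 old arrays were above every young one. Itgax, the CD11c integrin of dendritic cells and activated microglia, was 6.48, 6.65 and 7.09 in young and 7.06, 7.48 and 7.64 in old cortex. Only old array 5 was within the young range, and the difference was 0.68 ± 0.14 (adjusted p = 0.23). The other probe gave -0.06, so the difference rests on 1 of 2 probes.

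The complement genes C4b and C3 differed by 0.80 ± 0.37 and 0.54 ± 0.26, and the lysozyme gene Lyz2 by 0.69 ± 0.31. Tlr2, which senses bacterial lipoproteins, differed by 0.42 ± 0.15. The inhibitory receptors Fcgr2b and Pirb differed by 0.44 ± 0.20 and 0.50 ± 0.23, and the membrane-binding Anxa4 by 0.35 ± 0.14. Leaving out an array left between 4 and 8 of the list higher, fewest (4) without young array 7 or without old array 2, 5 or 6, and 12 of the 16 arrays each took at least 3 genes from the count. Without the 4 young arrays low in striatal genes, 3 were higher and 1 lower. The 8 arrays that a scanner file matched gave 2 higher, 1 lower and 20 of 34 positive, and the 8 that none matched gave 5, none and 33. Over all 20725 genes, 221 were higher and 624 lower in the matched arrays, and 178 and 127 in the others.

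Microglia, the resident immune cells, had markers with a median of -0.01, and 1 of its 16 genes, the Fc receptor-like gene Fcrls, was lower by unadjusted p at -0.48 ± 0.20. Over all genes 2.92% were lower. The centred mean of the microglial list was between -0.21 and 0.20 in young and between -0.20 and 0.08 in old cortex. Interferon-induced genes had a median of -0.04 and antigen presentation genes 0.13, with none of 17 and none of 13 at unadjusted p under 0.05. The members of lowest p were the interferon regulator Irf7, at -0.36 ± 0.19, and the chaperone Calr, at 0.25 ± 0.16. T cell, B cell and red blood cell lists had medians of -0.02, -0.08 and 0.11.

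Collagens and other matrix genes had lower values in old cortex. Of 27 tested, 8 were lower and 1 higher at unadjusted p under 0.05, where 2.92% of all genes were lower and 1.96% higher, with a median of -0.32 and none past the adjusted threshold. Col3a1, a fibrillar collagen of vessel walls and meninges, was 8.69, 9.83 and 11.28 in young and 7.13, 8.25 and 9.07 in old cortex, and 7 of the 8 old arrays were below every young one. On young arrays 1 to 5 it was between 9.82 and 11.28, and on young arrays 6 to 8 between 8.69 and 9.12. The difference was -1.78 ± 0.38 (adjusted p = 0.32), while the other, dimmer probe gave -0.06 ± 0.13, so the difference rests on 1 of 2 probes. It was -2.31 without the 4 young arrays low in striatal genes.

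The other fibrillar collagens of the list, Col1a1, Col1a2, Col5a1 and Col5a2, differed by -0.89 ± 0.33, -0.58 ± 0.27, -0.51 ± 0.22 and -0.53 ± 0.15. The other probe of Col5a1 gave 0.23 ± 0.39. The basement membrane collagens Col4a1 and Col4a2 differed by -0.34 ± 0.13 and -0.56 ± 0.23. Serpinh1, the collagen chaperone, differed by -1.41 ± 0.63, a mean drawn down by old array 1 at 7.37 where the other old arrays were between 11.42 and 13.07, and -0.77 without that array. Col6a1 was the member with a positive difference at low p, 0.58 ± 0.26.

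A list of meningeal and fibroblast genes, which shares Col1a1, Col1a2 and Col3a1 with the matrix list, had 6 of 18 genes lower, where 2.92% of all genes were lower, and a median of -0.43. The 3 shared collagens were among the 6, and the others were the transporter Slc22a6 at -0.85 ± 0.33, the receptor Asgr1 at -0.69 ± 0.28 and the retinoic acid enzyme Aldh1a2 at -0.66 ± 0.28. Its centred mean was between 0.31 and 0.85 on young arrays 1 to 5, but -0.49, 0.16 and -0.22 on young arrays 6 to 8. In old cortex it was between -0.64 and 0.05. The matrix mean was between 0.15 and 0.71 on young arrays 1 to 5 and between -0.10 and -0.06 on young arrays 6 to 8. In old cortex it was between -0.32 and 0.05. Young arrays thus differed among themselves in both lists, and this split was not tested. How much of the meninges each dissection kept was not tested as a source of the collagen values. Counts in both lists rested on few arrays: without young array 4 the matrix list had 4 lower, and without young array 1 or 3 it had 5 and the meningeal list 3. Without old array 2, 7 or 8 the meningeal list also had 3. In the 8 arrays that a scanner file matched, 6 of 27 matrix genes (median -0.33) and 8 of 18 meningeal genes (-0.67) were lower. In the 8 that none matched, 1 matrix gene (-0.13) and 1 meningeal gene (-0.25) were lower. Over all 20725 genes, 624 were lower in the matched arrays and 127 in the others.

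Among neuronal lists, excitatory synapse genes had a median of -0.08 and inhibitory neuron genes 0.07. The cortical neuron list had -0.27, with 17 of 20 genes negative. In it 2 genes (Slc17a7 and Neurod2) were lower at unadjusted p under 0.05, where 2.92% of all genes were lower. The median of this list was 0.02, with 10 of 20 negative and none lower, without the 4 young arrays low in striatal genes. Slc17a7 itself was lower in old cortex by -0.71 ± 0.24 (adjusted p = 0.849), with 5 old arrays below every young one, and the cortical neuron factor Neurod2 differed by -0.66 ± 0.28. Without those 4 arrays they were -0.59 and -0.30. The lowest Slc17a7 was 11.83 on old array 6, the array with the lowest cortical neuron mean, -1.12. Gad1, which makes GABA, was higher by 0.84 ± 0.25, and 0.57 without the 4 young arrays low in striatal genes. The upper-layer gene Otof differed by -0.71 ± 0.29.

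Genes of immature neurons and growing processes had a median of -0.14. Of 24, 4 were lower and 1 higher by unadjusted p, where 2.92% of all genes were lower and 1.96% higher. The list's centred mean was between -0.17 and 0.44 in young cortex. It was 0.48, 0.44 and 0.41 on old arrays 3, 5 and 6, which were also high in olfactory bulb genes. On the other 5 old arrays it was between -0.49 and -0.20, below every young one. Mex3a, an RNA-binding protein, differed by -0.70 ± 0.18, Dpysl3, which guides growth cones, by -0.70 ± 0.20, and Marcksl1, which shapes actin at the membrane, by -1.06 ± 0.33. The newborn oligodendrocyte signal Bmp4 differed by -0.56 ± 0.23 in a list with a median of -0.02, and Birc5, survivin, by -0.45 ± 0.16 in a cell division list with a median of 0.01.

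Glia, vessels and housekeeping pathways showed small medians. Astrocyte genes had 0.09 and reactive astrocyte genes -0.12. The latter had 2 of 11 lower by unadjusted p, led by the filament gene Nes at -0.49 ± 0.21, where 2.92% of all genes were lower. Endothelial and mural genes had -0.15 and -0.25, with Egfl7, a secreted endothelial protein, at -0.43 ± 0.15 and Myh11, smooth muscle myosin, at -0.74 ± 0.33 (-0.49 without young array 1). The centred mural mean was between 0.31 and 0.64 on young arrays 1 to 5 and between -0.47 and -0.15 on young arrays 6 to 8. In old cortex it was between -0.48 and 0.19. Oxidative phosphorylation had 0.07 over 82 genes, none at unadjusted p under 0.05. Heat shock genes had 0.17, cholesterol genes -0.04 and clock genes 0.06.

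**Figure D5:**
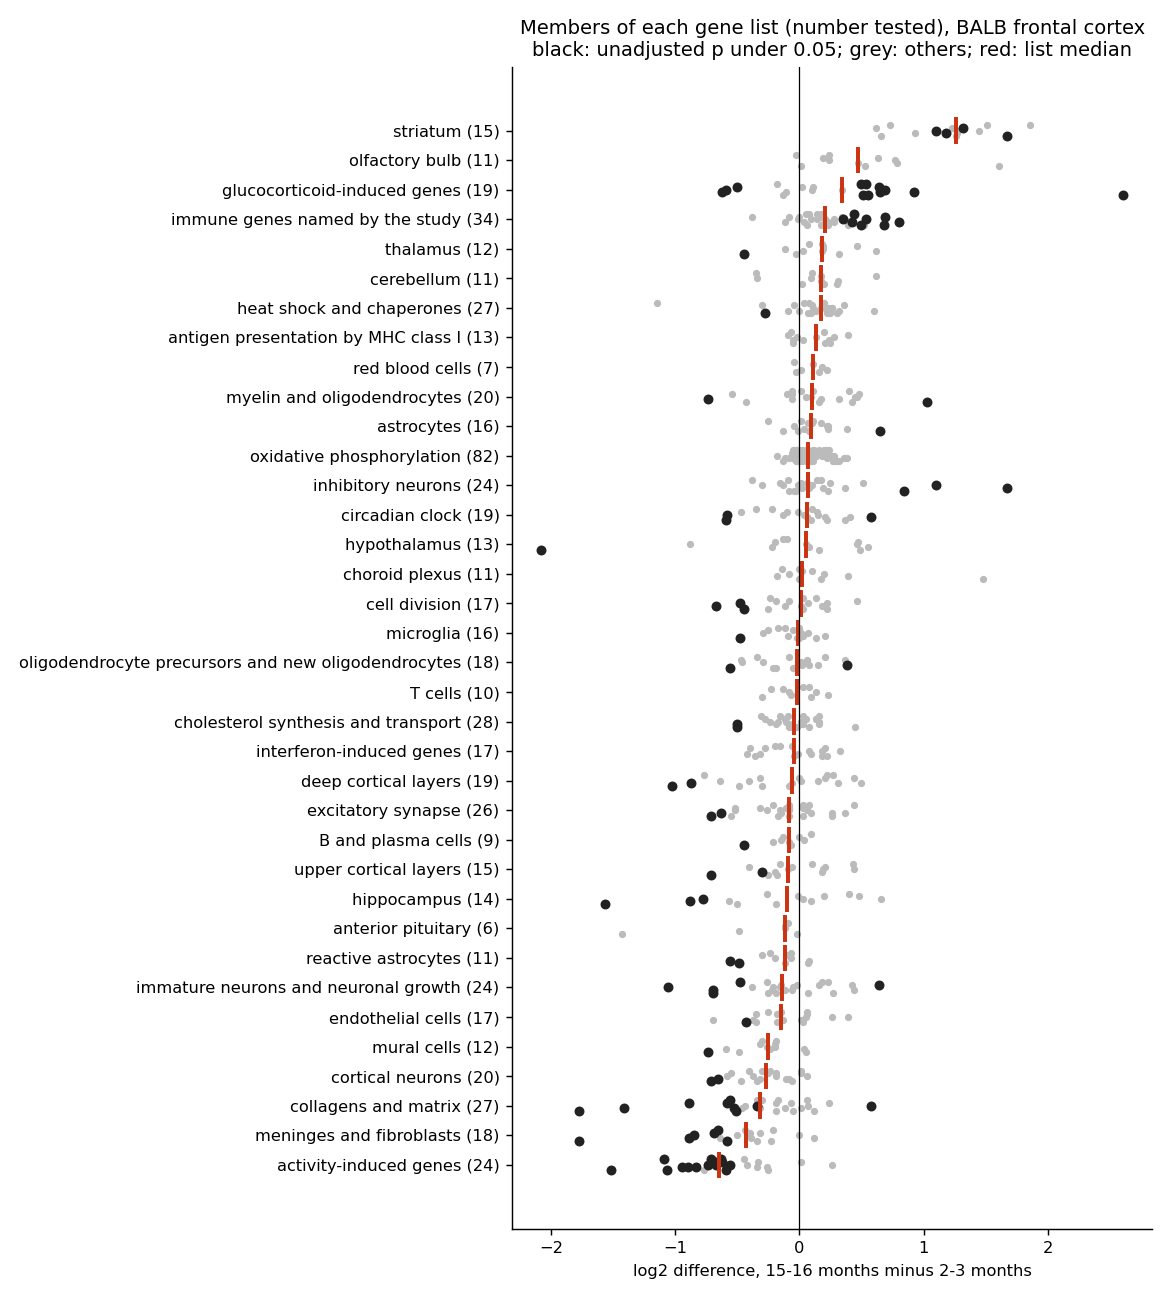
Log2 difference, old minus young, of each tested member (points) of every gene list, with the number tested in brackets; black points have unadjusted p under 0.05, grey points do not, and red bars are list medians. Activity-induced genes lie lowest with a median of -0.65, and striatal genes, low on 4 young arrays, lie highest at 1.26.

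The frontal cortex differences were set against those of the BALB hypothalamus between 2-3 months (7 arrays) and 12-13 months (5 arrays). Region, sex (the hypothalamus mice were male), age of the older group, array design and normalization differ together between these cohorts and cannot be told apart. No gene of 18712 passed for a difference between the age effects (0%), and 734 (3.92%) had unadjusted p under 0.05. Rprm had -1.03 in frontal cortex and 0.21 in hypothalamus, a difference of -1.24 ± 0.24 (limma adjusted p = 0.215). Plin4 had 2.61 and 0.55, a difference of 2.05 ± 0.60 (adjusted p = 1). Fos had -1.09 and 0.60, and the activity-induced list had medians of -0.65 and 0.15. The immune list had medians of 0.21 and 0.27, and meningeal genes -0.43 and -0.75. Against hypothalamus at 20-23 months (6 arrays), again no gene passed, 3.6% had unadjusted p under 0.05, and the immune list had a hypothalamic median of 0.61. In that older hypothalamus meningeal genes had a median of 0.15, unlike the -0.75 at 12-13 months, and activity-induced genes 0.13.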

How the data were processed

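Total RNA was labelled with Cy3 and hybridised to Agilent 4x44K arrays, per the labels. The values analysed were the log2 values the authors deposited for all 16 arrays, quantile normalized by them. In 8 columns the ranks matched the spot medians, without background subtraction, of a scanner file (rank correlation 1.0). The other 8 columns matched no file, so which spot values they came from was not checked. The deposited Feature Extraction output gave spot intensity for 8 of the 16 (version 9.1 per the labels, 9.5 per the file headers). The deposited 0 or 1 marks for spots well above background (64.9% to 77.8% of probes per array) served as the filter. Array number limits precision. All 104 columns of the table were mapped and 0 were not. The scanner files labelled old 5 and old 6 matched the columns old 6 and old 7, and the column old 5 matched none, within the same age group. Of 41174 probes, 23075 were named through RefSeq and 18099 by the file.

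A probe was tested when well above background on at least 4 of the 8 scanned arrays (29987 probes), and a gene was given by its brightest tested probe. lmFit and eBayes of limma 3.58.1 (R 4.3.3, prior proportion 0.01) were run over the 16 arrays, with Benjamini-Hochberg adjustment over probes and two-sided tests. The steps were tested on simulated data. A gene was called at B above 0 and adjusted p under 0.05. Members and lists were chosen with earlier results of these data known. Genes were named as the 10 of smallest p in each direction (3 unnamed loci were passed over), the called or lowest-p member of each list, Slc17a7 and the sex check, of which 2 are not reported here. Further list members, mostly those at unadjusted p under 0.05, were named after their values were seen. No p was computed for a list. Alternatives covered the scanner files, slide, scaling, filter, replicate number, variance model, array weights, call rule and each array left out. The source block, the striatal settings and the split by matching scanner file were chosen after seeing the data.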

Additional observations from a re-analysis of the deposited data

Results flagged for a closer look

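For 7 of 200 pairs of a named gene and an age group (3.5%), 1 of the 8 arrays lay far from the other 7. The genes were picked by p, list or value, so this share was not tested against chance. Avp was 15.26 on young array 1 (others 7.25 to 10.47) and 10.57 on old array 6 (others 6.66 to 7.86). Per1 was 15.27 on old array 1, with the others between 13.61 and 14.35. Ier2 was 11.17 on young array 8, below 12.42 to 13.09. Drd1 was 10.22 on old array 7, below 11.37 to 11.92. Neurod2 was 12.84 on old array 6, below 14.07 to 15.10. Serpinh1 was 7.37 on old array 1, below 11.42 to 13.07, and its single tested probe gave 12.08 to 14.09 in young cortex.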

How the results depend on the processing

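The count of genes called, 1 higher and 0 lower, moved with most settings. It was 0 on the scanner files (quantile, slide block, 75th percentile or normexp), on either set of 8 arrays by label or by matching file, without the filter (28780 genes), with the striatal mean as a covariate (with or without the source block) and without the 4 young arrays low in striatal genes. The source block gave 2, both higher (Xdh and Plin4), array weights 33, of which 7 higher and 26 lower, and B above 0 alone 19, of which 8 higher and 11 lower. Leaving out each array gave 0 to 1 called, 0 to 1 higher and 0 lower; without old array 7 the gene called was H2afy. The 75th-percentile centring of the table, a stricter filter, the brighter probes and a trended robust variance kept the count at 1. The replicate numbers of the table's columns, which may be shifted for old 5 to 7 (the scanner files matched other numbers), were not taken to pair the samples: the deviations of young and old arrays of the same number correlated between -0.61 and 0.87, 1 of the 8 young arrays correlated best with its own number, and with the replicate number as a block 0 genes were called. Of 3521 values of 101 named genes over 35 settings, 26 turned direction, for 10 genes. On scanner values centred on the 75th percentile these were Calr (-0.12), Uqcrh (-0.07), Mt1 (-0.12) and Mt2 (-0.13). Calr was -0.01 in the 8 table arrays with a scanner file by label. Egr3, near 0 as reported, was -0.15 on the scanner files with or without the slide block, -0.26 at the 75th percentile, -0.14 with normexp, -0.31 and -0.12 in the 8 table arrays with a scanner file by label or by match, and -0.07 to 0.11 with each array left out (-0.00 without young array 3 or old array 8). Homer1 was -0.01 in the 8 columns no scanner file matched. Drd2 was -0.22 with the striatal covariate, with or without the source block. Without the 4 young arrays low in striatal genes, Drd2 was -0.94, Drd1 -0.17, Penk -0.26 and Isl1 -0.17. No setting changed the count of 0 for the difference from hypothalamus; with 20-23 month hypothalamus, 664 genes had unadjusted p under 0.05. Causes were not tested.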

Other observations

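The striatal members at unadjusted p under 0.05 were the peptide genes Tac1 (1.67 ± 0.61) and Penk (1.1 ± 0.48), the dopamine receptor Drd1 (1.18 ± 0.51) and the factor Isl1 (1.32 ± 0.60). Tac1 was 0.21 without the 4 young arrays low in striatal genes. Other lowest-p members of lists were the odorant-neuron gene S100a5 (1.61 ± 0.77), the choroid plexus gene Clic6 (1.48 ± 0.72), pituitary Prl (-1.43 ± 1.02), thalamic Lef1 (-0.45 ± 0.21), cerebellar Crtam (0.30 ± 0.22), Lck (-0.30 ± 0.31), Bpgm (0.16 ± 0.11), Dnajb1 (-0.28 ± 0.12), Mvd (-0.50 ± 0.21) and Uqcrh (0.32 ± 0.21). Without those 4 arrays Clic6 was 0.09, Prl -0.92 and Lck -0.74. Leaving out each array gave -1.95 to -0.88 for Prl (-0.88 without young array 4), -0.43 to -0.14 for Lck (-0.14 without young array 1) and 0.23 to 0.46 for Crtam (0.46 without young array 3).

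Limits: the 8 arrays without scanner output have no slide or background marks here, so detection rests on the other 8. No label gives the time of day or order in which the frontal cortex samples were taken, so levels could not be set against either.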
